A study of Mus musculus with 4 samples.

Results

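Genes of 10 secreted factors that Th2-like and Th9-like cells can make besides interleukin 9 were followed in RNA of mouse T cells: Il4, Il5, Il13, Il24, Il10, Il3, Il2, Csf2, Areg and Penk. All 10 were found among the 23480 gene identifiers of the deposited tables by matching Entrez numbers to symbols. In build mm10, RefSeq places Il4 at chr11:53612460-53618665, Il13 at chr11:53631323-53634702, Il5 at chr11:53720794-53725103, Csf2 at chr11:54247270-54249899 and Il3 at chr11:54265085-54267279. Il24 lies at chr1:130882074-130887411, Il10 at chr1:131019845-131024970, Il2 at chr3:37120713-37125954, Penk at chr4:4133536-4138815 and Areg at chr5:91139599-91148432. The libraries came from T cells grown under Th9 conditions with TLA1 (n = 2) and from T cells grown under Th9 conditions alone (n = 2). Both groups thus share the Th9 condition, and the added TLA1 is what separates them; the series title writes TL1A, which is read here as the same protein. The sources used here do not give the mouse strain, age, genotype or culture time. They also do not say whether replicates came from separate mice or dishes, and all p-values here therefore reflect only how far these libraries spread, which may be technical.

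Th9 cells are helper T cells that are raised with TGF-beta and interleukin 4 and are known for secreting interleukin 9, a factor of allergic and mucosal inflammation. TL1A, a relative of TNF, acts on T cells through death receptor 3. Type 2 cytokines are classically made by Th2 cells, where the genes of interleukins 4, 5 and 13 lie close together and are opened as a group, while interleukin 2, interleukin 3 and GM-CSF support the growth of lymphoid and myeloid cells.

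Reads counted in genes ranged from 2979482 to 4041633 per library, and levels are given as CPM, the authors' scaling of those reads to a common library size. A count of 3 reads, the floor used where a library had none, came to 0.742 to 1.01 CPM. The cDNA was amplified and carries no molecular identifiers, so intervals and floors cover counting error only. Il9 itself stood at 2879 and 2683 CPM with TLA1, against 1560 and 1445 CPM in Th9 alone, and Cd4 at 520 and 479.7 CPM, against 470 and 457 CPM. All 8 listed T cell markers had reads, with summed levels of 3785 and 3605 CPM with TLA1 and 2846 and 3286 CPM in Th9. Of 10 mast cell and basophil markers, 9 were at 0 in every library, Fcer1a, Ms4a2, Cpa3 and Mcpt8 among them, and Kit had 5.03 and 0 CPM with TLA1, against 0 and 5.05 CPM in Th9. Of 10 myeloid and dendritic cell markers, 5 were at 0, namely Csf1r, Cd14, Lyz2, Mpo and S100a8, and the list summed to 15.4 and 8.76 CPM with TLA1 and to 7.92 and 3.16 CPM in Th9. The B cell markers Ms4a1 and Pax5 were at 0 throughout, while the 5 listed markers present in the tables summed to 28.9 and 29.2 CPM with TLA1 and to 10.4 and 12.9 CPM in Th9, most of it Cd79b. Of the markers of NK and innate lymphoid cells, Ncr1, Klrb1c and Klrk1 were at 0 in every library, and Id2, which T cells also express, had 321 and 302 CPM with TLA1, against 202 and 217 CPM in Th9. The CD8 T cell genes Cd8a and Cd8b1 summed to 9.73 and 10.1 CPM with TLA1 and to 7.92 and 13.3 CPM in Th9. The T cell, B cell and myeloid sums and Id2 were thus higher with TLA1 without overlap, and their part in the results was not tested. In bulk RNA, fewer cells of a type and less RNA per cell cannot be told apart.

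The comparison asked how far these cytokine genes moved when TLA1 was added to the Th9 condition. Il24 rose 4.95-fold. Il4, Il5, Il13, Il10, Csf2 and Penk were also higher in both TLA1 libraries than in both Th9 libraries but did not pass the test, Il2 overlapped, and Il3 and Areg were nearly silent. Fold changes were fitted by limma on log2(CPM + 1), which understates the change of low genes, and calls were made below 0.05 after Benjamini-Hochberg adjustment over the 10324 tested genes. Of the 10 members, 8 passed the filter on low counts, and 1 of them was called higher, where 0.891% of all tested genes were called higher. That share rests on 92 genes, which became 39 without Th9 replicate 1, 19 without Th9 replicate 2 and 50 without TLA1 replicate 2. None of the 8 was called lower by limma, edgeR or DESeq2, and 0 of them were lower at an unadjusted limma p under 0.05, while 0.252% of tested genes were called lower by limma. At an unadjusted limma p under 0.05 stood 7 of the 8, against 16.7% of tested genes. Groups did not overlap, with TLA1 higher, in 7 of the 10 members, against 17.0% of the 13947 genes with a read in any library. No member was lower without overlap, against 24.7% of those genes. The members were chosen with earlier results of these data known, so such counts are not an independent test of them. In a fit of all 13947 genes with no filter, the median log2 fold change of the 10 members was 1.39 and that of all genes -0.018. Il3 and Areg, with 2 reads each, lay below that median, so their fitted values do not set it. Il13 and Csf2 passed the filter through their TLA1 libraries alone, so their presence among the tested genes is not independent of their direction. The Th9 libraries of Il10 (1.98 and 13.6 CPM) and Il2 (7.42 and 0.947 CPM) did not both reach the filter's 3.20 CPM. Il10 and Il2 thus could not have passed it without their TLA1 libraries.

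**Figure D1:**
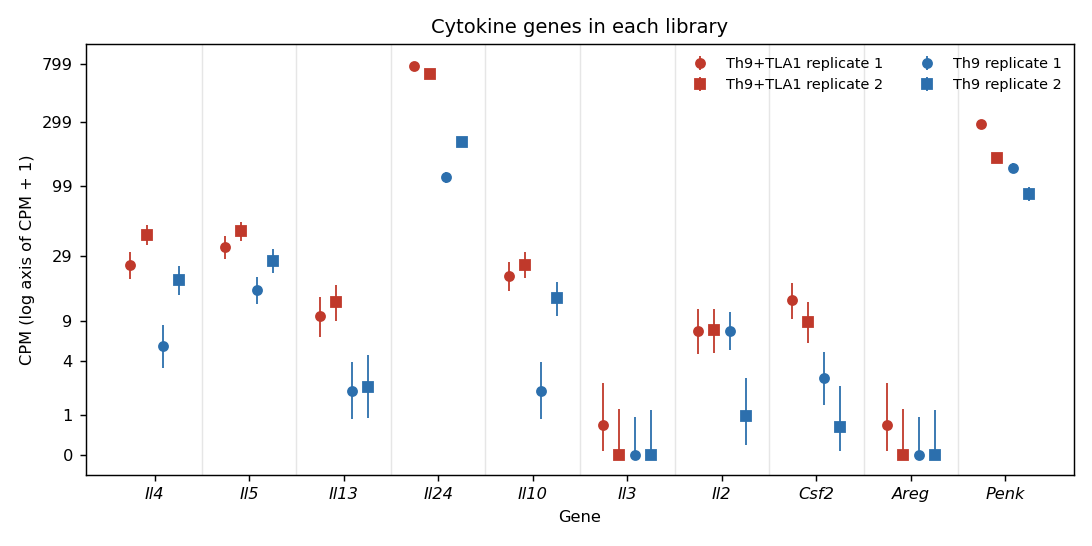
CPM of the 10 cytokine genes in each library on a log axis of CPM + 1, with Th9+TLA1 libraries in red, Th9 libraries in blue, circles for replicate 1, squares for replicate 2 and bars for exact 95% Poisson counting intervals. The intervals of both TLA1 libraries lie above those of both Th9 libraries for Il24, Il13 and Csf2, 3 of the 10 genes. The share of all genes with such intervals was not computed, so this count has nothing to be set against.

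Il24 encodes a cytokine of the interleukin 10 family that was first described in melanoma cells and is also made by type 2 T cells. Its level was 775 and 679 CPM in the TLA1 libraries, against 114 and 211 CPM in the Th9 libraries. Both TLA1 values lay well above the higher Th9 value, and the reads behind them were many, with 2310 and 2091 against 462 and 667. The log2 fold change was 2.31 ± 0.26 (SE, limma adjusted p = 0.00162, 95% interval 1.73 to 2.88), which placed Il24 at rank 11 by p of all tested genes. With any of the 4 libraries left out, the limma log2 fold change stayed between 1.82 without Th9 replicate 1 and 2.80 without Th9 replicate 2. With all 4 libraries, edgeR and DESeq2 called Il24 as well. Il10, which encodes the founding and mostly suppressive member of the same family, lies 132 kb from Il24 on chromosome 1. It had 20.5 and 24.99 CPM with TLA1, against 1.98 and 13.6 CPM in Th9. The groups did not overlap, but the higher Th9 library was 6.86 times the lower, and the log2 fold change of 1.92 ± 0.67 did not pass (limma adjusted p = 0.191). Without Th9 replicate 1 the log2 fold change of Il10 was 0.74, and without Th9 replicate 2 it was 3.10, neither of them called. The receptor genes through which interleukin 24 is known to act were little read: Il20ra and Il22ra1 had no read in any library, which bounds each at 0.742 to 1.01 CPM, and Il20rb had 2.01 and 0.325 CPM with TLA1, against 2.23 and 0.631 CPM in Th9. Il10ra, the ligand-binding chain of the interleukin 10 receptor, had 94.98 and 139 CPM with TLA1 and 96.5 and 93.1 CPM in Th9, an overlap.

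**Figure D2:**
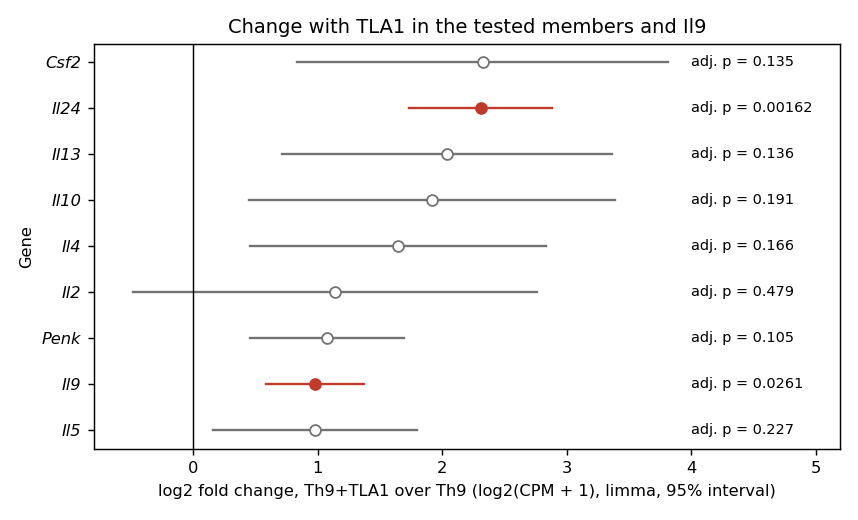
Log2 fold changes of the 8 tested cytokine genes and Il9, Th9+TLA1 over Th9, from limma on log2(CPM + 1), with 95% intervals and adjusted p on the right; red filled points passed an adjusted p under 0.05. Il24 (2.31) and Il9 (0.98) passed, and the interval of Il2, -0.49 to 2.76, is the 1 that reaches below 0.

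Il4, Il13 and Il5 are the classical type 2 cytokines: interleukin 4 drives Th2 commitment and IgE switching, interleukin 13 acts on epithelium and mucus, and interleukin 5 supports eosinophils. Their genes sit within one cluster on chromosome 11, Il4 and Il13 being 12.7 kb apart and Il13 and Il5 86.1 kb. Il13 had 9.73 and 12.7 CPM in TLA1 libraries, against 1.98 and 2.21 CPM in Th9 libraries. Both groups were tight, the larger Th9 value being 1.12 times the smaller, yet only 8 and 7 reads stood behind the Th9 values. Its log2 fold change was 2.04 ± 0.61 (SE, limma adjusted p = 0.136). Il4 had 24.8 and 42.2 CPM with TLA1, against 5.44 and 18.9 CPM in Th9. Here the Th9 libraries differed 3.48-fold between themselves, and the counting interval of the higher one, 14.5 to 24.4 CPM, overlapped that of the lower TLA1 library, 19.5 to 31.2 CPM. The log2 fold change of Il4 was 1.64 ± 0.54 (limma adjusted p = 0.166). It was called without TLA1 replicate 1, at 2.01 with adjusted p = 0.0321, and was not called at 0.79 without Th9 replicate 1 or at 2.50 without Th9 replicate 2. Il5 had 33.9 and 45.1 CPM with TLA1, against 15.8 and 26.8 CPM in Th9, and a log2 fold change of 0.98 ± 0.37 (limma adjusted p = 0.227). No setting called Il5 or Il13, with an adjusted p of 0.167 to 0.680 for Il5 and of 0.114 to 0.411 for Il13.

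Csf2 and Il3 form a second pair on chromosome 11, 15.2 kb apart and 522 kb or more from Il4, Il5 and Il13. Csf2 encodes GM-CSF, a growth factor of granulocytes and macrophages, and Il3 encodes a growth factor of mast cells and basophils. Csf2 had 13.1 and 8.76 CPM in TLA1 libraries, against 2.72 and 0.631 CPM in Th9 libraries, from 39 and 27 reads against 11 and 2. Its log2 fold change of 2.33 ± 0.68 (SE) was close to that of Il24 in size but did not pass (limma adjusted p = 0.135). Over the alternatives with an adjusted p it was never called, with values of 0.0956 to 0.520. Il3 had 2 reads in TLA1 replicate 1, 0.671 CPM, and 0 in the other libraries, so no level could be compared at this depth. The pair therefore held a gene with reads in all 4 libraries beside a nearly silent one. RefSeq lists a model named Gm12223 over Csf2 and LOC115487722 over Il3; libraries from this kit do not record strand, so reads from such overlapping models could not be separated.

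The sequences before the start sites of these neighbours show what lies next to genes with reads in all 4 libraries and next to Il3, which had 2 reads in 1 library. The 250 bases before the RefSeq start are given 5′ to 3′ along the gene for Il13 (chr11:53634703-53634952), Il4 (chr11:53618666-53618915), Csf2 (chr11:54249900-54250149) and Il3 (chr11:54267280-54267529), all on the minus strand of GRCm38.p6, with each GGAAA or its reverse complement TTTCC, the core of NFAT sites, in capitals.
Il13: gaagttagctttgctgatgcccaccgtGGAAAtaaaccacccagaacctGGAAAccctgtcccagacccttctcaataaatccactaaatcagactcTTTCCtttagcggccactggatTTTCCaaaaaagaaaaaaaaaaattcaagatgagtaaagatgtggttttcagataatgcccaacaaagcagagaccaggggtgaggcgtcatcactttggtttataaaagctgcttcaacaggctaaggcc
Il4: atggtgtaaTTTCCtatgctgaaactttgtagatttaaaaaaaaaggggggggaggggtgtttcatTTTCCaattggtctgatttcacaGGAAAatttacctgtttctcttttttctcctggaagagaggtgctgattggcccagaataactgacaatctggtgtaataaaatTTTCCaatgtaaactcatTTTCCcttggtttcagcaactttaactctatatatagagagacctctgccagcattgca
Csf2: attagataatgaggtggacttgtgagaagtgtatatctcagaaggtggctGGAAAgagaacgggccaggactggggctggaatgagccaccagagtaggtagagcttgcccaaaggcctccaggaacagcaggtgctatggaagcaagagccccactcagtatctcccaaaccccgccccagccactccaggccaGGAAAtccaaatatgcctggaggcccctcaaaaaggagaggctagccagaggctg
Il3: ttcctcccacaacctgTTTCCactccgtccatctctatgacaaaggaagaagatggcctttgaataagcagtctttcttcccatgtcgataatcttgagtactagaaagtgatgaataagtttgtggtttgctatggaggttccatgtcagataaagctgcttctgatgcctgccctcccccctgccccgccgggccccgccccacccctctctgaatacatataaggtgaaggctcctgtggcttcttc
The NFAT core occurred 4 times before Il13, 5 times before Il4, 2 times before Csf2 and 1 time before Il3. In windows not printed it occurred 2 times before Il5, 2 times before Il2 and 1 time before Areg. Among 32817 RefSeq promoter windows of the same 250 bases, 55.6% held at least 1 such core on either strand, 21.4% at least 2, 1.58% at least 4 and 0.390% at least 5. The AP-1 motif TGANTCA, bound by BATF and JUN proteins, had no exact match in these 4 windows or in those of Il5, Il2 and Areg, and 6.75% of all windows held it. The core GATA, bound by Gata3 and its relatives and also read on both strands, occurred 3 times before Csf2, 2 times before Il3 and 1 time before Il13. It was also found before Il5 but not before Il4, Il2 or Areg. Of all windows, 53.6% held at least 1, 24.2% at least 2 and 9.62% at least 3. Promoter windows of 7 of the 10 members were found; Il24, Il10 and Penk had none in the table used.

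Il2 encodes the growth factor that T cells make soon after activation. It had 7.38 and 7.46 CPM with TLA1, against 7.42 and 0.947 CPM in Th9. Both TLA1 libraries and Th9 replicate 1 were almost level, and Th9 replicate 2 stood apart with 3 reads, so the groups overlapped. The log2 fold change was 1.14 ± 0.74 (SE, limma adjusted p = 0.479) and was 0.13 without Th9 replicate 2. With Th9 replicate 1 left out instead it was 2.14, and neither value was called. Areg encodes amphiregulin, a ligand of the EGF receptor linked to tissue repair by T cells. It had 2 reads in TLA1 replicate 1, 0.671 CPM, and 0 elsewhere, which was too few for a comparison. Of 9 listed genes for other EGF receptor ligands and the enzymes that release them, 4 were tested. None of the 4 was called by limma, edgeR or DESeq2, and 0 were at an unadjusted limma p under 0.05, against 16.7% of tested genes. Egf was not tested and had 0 reads in both TLA1 libraries, against 9 and 11 reads in Th9. Ereg, Epgn, Btc and Tgfa had no read, and the sheddase Adam10 was the most abundant of the list at 263 and 218 CPM with TLA1, against 287 and 263 CPM in Th9.

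Penk encodes proenkephalin, the precursor of the enkephalin opioid peptides, which activated helper T cells can also make. It had 287 and 159 CPM in TLA1 libraries, against 135 and 85.6 CPM in Th9 libraries. The groups did not overlap, but the lower TLA1 library lay close to the higher Th9 library, with counting intervals of 146 to 174 CPM and 124 to 147 CPM. The log2 fold change of 1.08 ± 0.28 (SE) had a limma adjusted p of 0.105, and Penk was called by DESeq2 (1.12, adjusted p = 0.0120). Its limma log2 fold change was 1.51 without TLA1 replicate 2 and 0.65 without TLA1 replicate 1. Among 10 listed genes of opioid precursors and peptide processing, 4 were tested and 1 was called higher, against 0.891% of all tested genes. That gene, Pcsk1, encodes a convertase that cuts prohormones, proenkephalin among them. Pcsk1 had 10.4 and 11.0 CPM in TLA1 libraries and 0 in both Th9 libraries, which makes it at least 12.7-fold higher when each Th9 library is set to 3 reads. The bound ranged from 11.3-fold without Th9 replicate 1 to 14.4-fold without Th9 replicate 2. It passed the filter on low counts through its TLA1 libraries alone, so its presence among the tested genes is not independent of its direction. Pcsk1 passed in limma with all 4 libraries (adjusted p = 0.0390) and in edgeR, but not with total count scaling (0.0646), no filter (0.0509) or a pseudocount of 0.25 CPM (0.0711), and DESeq2 gave it no adjusted p. It was also not called without Th9 replicate 1 (0.166), Th9 replicate 2 (0.131), TLA1 replicate 1 (0.237) or TLA1 replicate 2 (0.161). The other opioid precursors Pdyn, Pomc and Pnoc had at most 1.298 CPM in any library, and Furin, a convertase of the general secretory pathway, had 325 and 236 CPM with TLA1 and 219 and 254 CPM in Th9.

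The 2 Th9 libraries differed beyond counting error in most members and the 2 TLA1 libraries in fewer. The share of all genes that did so was not computed. The exact 95% Poisson intervals of the 2 Th9 libraries were apart for 6 members, Il4, Il5, Il24, Il10, Il2 and Penk, and those of the 2 TLA1 libraries for 3, Il4, Il24 and Penk. The Th9 libraries did not differ in one direction: replicate 2 was the higher for Il4, Il5, Il13, Il24 and Il10, and replicate 1 for Il2, Csf2 and Penk. Leaving out a Th9 library accordingly moved Il10, Il4 and Il2 far more than Il13.

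**Figure D3:**
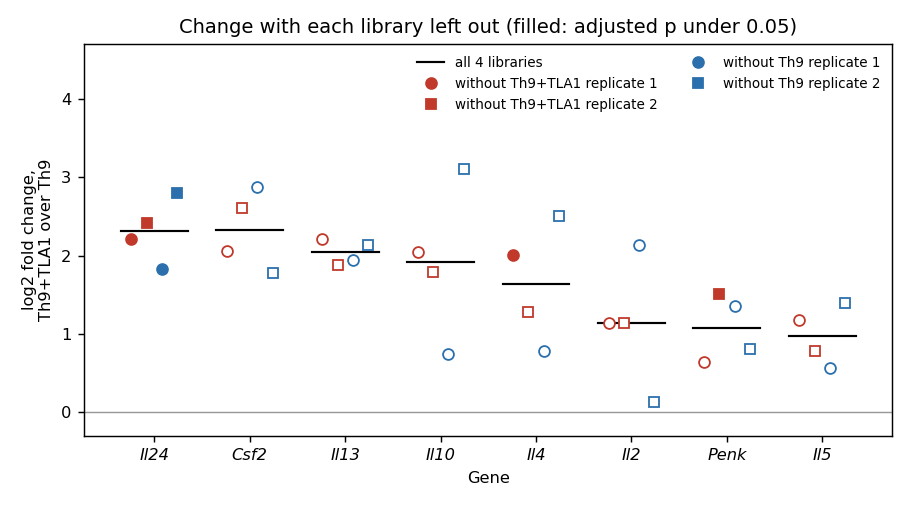
Log2 fold changes, Th9+TLA1 over Th9, of the 8 tested cytokine genes with each library left out in turn, red where a Th9+TLA1 library and blue where a Th9 library was left out, circles for replicate 1 and squares for replicate 2; black lines are the fits to all 4 libraries and filled symbols have an adjusted p under 0.05. Il10 spans 0.74 to 3.10. Each fit with a library left out has 1 library in a group, so filled symbols rest on the spread of the other group and of other genes.

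Levels were compared between genes per kilobase of annotated exon (CPM per kb, union of GENCODE exons). With TLA1 the order of the means was Il24 at 525, Penk 137, Il4 27.3, Il5 25.7, Il10 17.4, Csf2 13.7, Il13 9.29 and Il2 6.49 CPM per kb. Il4 and Il5 overlapped between their libraries there, and so did Il10 and Csf2. In Th9 the order of the means was Il24 at 117, Penk 67.5, Il5 13.9, Il4 9.94, Il10 5.94, Il2 3.66, Csf2 2.10 and Il13 1.74 CPM per kb. There every pair of neighbours in the order overlapped except Penk and Il5. Il24 and Penk were nearly equal in Th9 replicate 1, at 82.5 and 82.7 CPM per kb. Il24 made up 67.8% and 70.2% of the summed level per kb of the 10 members in TLA1 libraries, against 42.7% and 60.5% in Th9 libraries. Set against Il9 in the same library, also per kb, Il24 reached 10.4% and 9.78% of the Il9 level with TLA1, against 2.83% and 5.63% in Th9. Il13 reached 0.150% and 0.210% with TLA1, against 0.0564% and 0.0680% in Th9, and Csf2 0.305% and 0.219%, against 0.117% and 0.0293%. These 3 ratios did not overlap between groups, where an exact two-sided permutation test of 2 against 2 libraries can give no p under 0.333. The ratios of Il4, Il5, Il10, Il2 and Penk to Il9 overlapped, Penk standing at 3.27% and 1.95% with TLA1 and at 2.84% and 1.94% in Th9.

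Genes around these cytokines were read from lists of their receptors, regulators and companions. Of 20 receptor genes, 8 were tested and 0 were called by limma or edgeR. The median log2 fold change of the 8 was 0.34, against -0.013 for all tested genes. At an unadjusted limma p under 0.05 stood 1 of the 8, against 16.7% of tested genes. That 1 gene, Il2rg, encodes the common gamma chain shared by the receptors of interleukins 2, 4 and 9, and had 714 and 662 CPM with TLA1, against 404 and 463 CPM in Th9 (log2 fold change 0.76, limma adjusted p = 0.0704). DESeq2 called Il2rg, alone of the list. Il2ra, the high-affinity interleukin 2 receptor chain, was the most abundant, at 3599 and 3564 CPM with TLA1 and 2977 and 3137 CPM in Th9 (limma adjusted p = 0.437). Il4ra had 981 and 1059 CPM with TLA1, against 837 and 900.1 CPM in Th9, while Il5ra had no read and Csf2rb, the signalling chain for GM-CSF and interleukins 3 and 5, had 2 reads in Th9 replicate 2 alone.

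Of 34 regulators of type 2 cytokine genes, 31 were tested and 0 were called by limma or edgeR, with a median log2 fold change of 0.24. At an unadjusted limma p under 0.05 stood 10 of the 31, against 16.7% of tested genes. Among these 10 only Nfkb1 was lower (log2 fold change -0.42). Pparg, also among them, passed the filter through its TLA1 libraries alone, at 4.36 and 9.41 CPM against 0 and 2.21 CPM in Th9. DESeq2 called 2 of the 31 higher, Batf3 and Bhlhe40. Bhlhe40, a transcription factor of cytokine-producing T cells, had 1709 and 1413 CPM with TLA1, against 751 and 1098 CPM in Th9 (log2 fold change 0.87, limma adjusted p = 0.0965). Gata3, which directs Th2 commitment, was at 246 and 273 CPM with TLA1, against 278 and 337 CPM in Th9, and Stat6, which carries the interleukin 4 signal, 409 and 477 CPM against 456 and 430.0 CPM. Maf, an activator of Il4 and Il10, had 12.1 and 11.0 CPM with TLA1, against 7.18 and 5.999 CPM in Th9 (limma adjusted p = 0.458). Ets1 had the highest CPM of the list in all libraries but TLA1 replicate 1, where Bhlhe40 was above it, at 1613 and 1600.0 CPM with TLA1 and 1382 and 1599.8 CPM in Th9.

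Of 18 other Th2-associated genes, 11 were tested, 2 were called higher and 0 lower, against 0.891% and 0.252% of all tested genes. Their median log2 fold change was 0.22. Ecm1, which encodes a secreted matrix protein linked to Th2 cell exit from lymph nodes, had 827 and 709 CPM with TLA1, against 185 and 398 CPM in Th9 (log2 fold change 1.58, limma adjusted p = 0.0294). With a library left out, its log2 fold change ranged from 0.99 without Th9 replicate 1 to 2.19 without Th9 replicate 2. The call was lost with edgeR (adjusted p = 0.0512), DESeq2 (0.156), total count scaling (0.0566) and no filter (0.108). Cysltr1, a receptor for cysteinyl leukotrienes, had 97.3 and 118 CPM with TLA1, against 47.3 and 49.9 CPM in Th9 (log2 fold change 1.22, limma adjusted p = 0.0318). Cysltr1 was also called by edgeR and DESeq2, and not without Th9 replicate 1 (limma adjusted p = 0.163), Th9 replicate 2 (0.133) or TLA1 replicate 2 (0.143), nor with total count scaling (0.0669) or no filter (0.0712). Il1rl1, the interleukin 33 receptor of Th2 cells, had reads in TLA1 replicate 2 alone, and the chemokine receptor gene Ccr3 had none. Of 36 other cytokine genes, 17 were tested, 2 were called higher and 0 lower, against 0.891% and 0.252% of all tested genes. The median log2 fold change of the 17 was 0.32. The 2 were Il21 and Il17f, with log2 fold changes of 3.32 and 3.15 (limma adjusted p = 0.00171 and 0.0118). Without Th9 replicate 2 neither was called (limma adjusted p = 0.0791 and 0.0912), and the log2 fold change of Il17f was 3.77 there and 2.54 without Th9 replicate 1. With no filter Il17f was also not called (0.0640). DESeq2 called these 2 and edgeR 3, the added gene being Il22, at 20.5 and 4.54 CPM with TLA1 and 0 in both Th9 libraries (limma adjusted p = 0.0789), which makes it another gene that passed the filter through TLA1 libraries alone.

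Genes lying within 150 kb of a member were examined to see whether the neighbourhoods moved along. Besides the members, 30 such genes were in the tables, 15 were tested, and Il21, 96.8 kb from Il2, was the 1 called by limma, higher. Over all tested genes, limma called 0.891% higher. DESeq2 called 2 higher, Il21 and Mapkapk2, and edgeR 1 higher, Il21. Mapkapk2, a stress kinase gene 28.7 kb from Il10, had 994 and 1032 CPM with TLA1, against 614 and 777 CPM in Th9 (limma adjusted p = 0.133). None was called lower by limma or DESeq2 and 1 was by edgeR. At an unadjusted limma p under 0.05 stood 5 of the 15 tested neighbours, against 16.7% of tested genes. Of the 5, 3 were higher (Il21, Mapkapk2 and Mthfd2l) and 2 lower (Acsl6 and Pigr). Mthfd2l passed the filter on low counts through its TLA1 libraries alone, at 18.5 and 4.87 CPM against 2.72 and 0.316 CPM in Th9. Pigr passed it through its Th9 libraries alone, so neither gene's presence among the tested genes is independent of its direction. The median log2 fold change of the 15 was 0.23. Between Il13 and Il5, Rad50, whose introns hold the known locus control region, had a log2 fold change of 0.23, and on the flanks Kif3a had 0.26, Septin8 0.33 and Irf1 0.044 (limma adjusted p of 0.619 or more). On chromosome 1, Fcmr, 1.28 kb from Il24, had 16.1 and 16.9 CPM with TLA1, against 8.41 and 19.6 CPM in Th9, and the Il24 relatives Il19 and Il20, which lie between Il24 and Il10, had at most 1.26 CPM in any library. Pigr, 29.8 kb from Il24 on the same side as Fcmr, which encodes a transporter of antibodies across epithelium, had 0 and 0.974 CPM with TLA1, against 19.8 and 6.31 CPM in Th9 (limma adjusted p = 0.0934). Acsl6, an acyl-CoA synthetase gene, lies 36.5 kb from Il3 and 53.9 kb from Csf2. It had no read in TLA1 libraries, against 7.42 and 10.7 CPM in Th9, which makes it at least 9.17-fold lower when each TLA1 library is set to 3 reads. It passed the filter through its Th9 libraries alone, did not pass in limma (adjusted p = 0.0722), was the gene called by edgeR (0.0489), and its bound stayed between 7.496 and 10.8-fold when a library was left out.

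**Figure D4:**
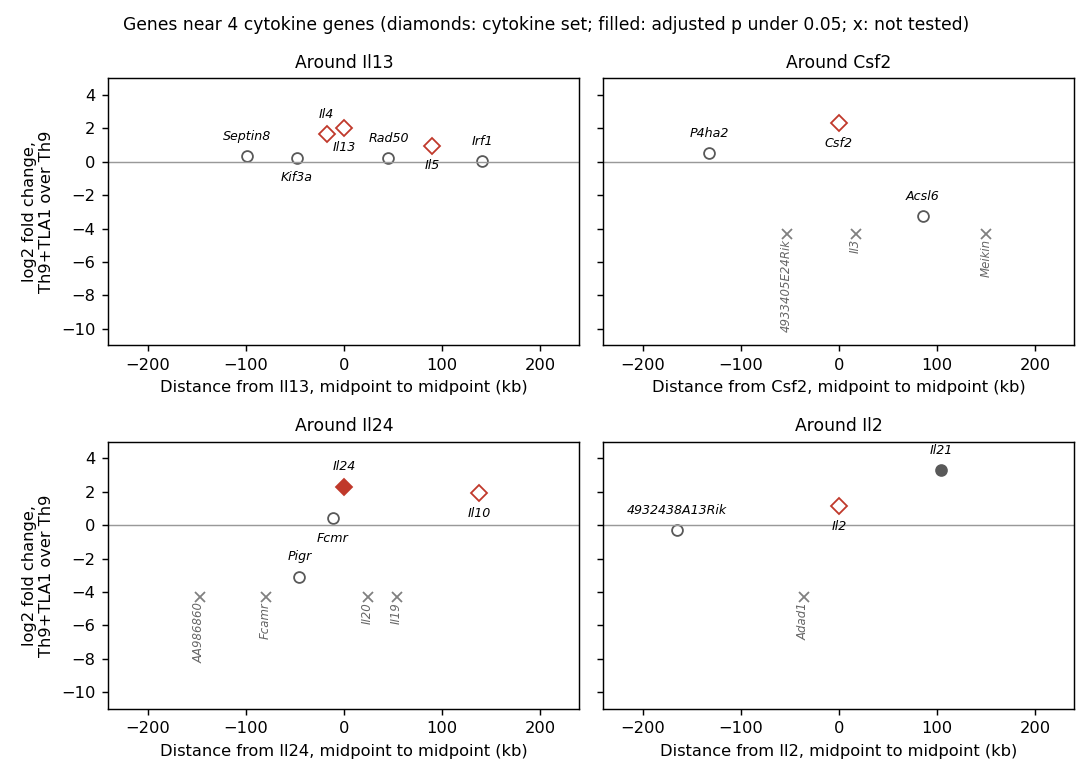
Log2 fold changes, Th9+TLA1 over Th9, of genes within 150 kb of Il13, Csf2, Il24 and Il2, plotted by distance in kb between gene midpoints; diamonds are members of the cytokine set, circles other tested genes, filled symbols have an adjusted p under 0.05 and crosses at a fixed height are genes that were not tested. Il24 and Il21 are filled, Rad50, Kif3a, Septin8 and Irf1 around Il13 lie near 0, and Acsl6 and Pigr lie below -3.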

How the data were processed

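The authors deposited CPM, gene read counts scaled to the same total in each of 4 libraries, with 23480 gene identifiers per library. Per the labels' protocols, total RNA was made into cDNA with a SMARTer low-input kit, and fragments of it were read on an Ion Torrent machine. HTSeq 0.5.4, edgeR and build mm10 are listed in the submitters' processing notes. Aligner and annotation: not given in the sources used here.

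Every non-zero value (100%) was a whole multiple of the library's smallest, within 0.01 of a read, which gave whole reads back. Symbols and coordinates came from RefSeq on GRCm38.p6, the assembly of mm10 (23383 identifiers matched). Genes were filtered with filterByExpr (minimum count 10) on those reads, leaving 10324, CPM were divided by TMM factors (0.964 to 1.06), and log2(CPM + 1) was fitted on the group with limma (lmFit, eBayes with trend). Printed CPM are the deposited ones. Calls were made below 0.05 after Benjamini-Hochberg adjustment across those genes. The test was checked on simulated data.

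Named were all members, called genes of each list or, with none, its most abundant gene by mean CPM, and genes within 150 kb of a member; other names were chosen after their values were seen. The summed level of the NK and innate lymphoid markers is not reported here. The members and lists were chosen with earlier results of these data known. Alternatives were RLE and total count scaling, no filter, pseudocounts of 0.25 and 5 CPM, edgeR and DESeq2 on recovered reads, a replicate block, and leaving out each library. Leaving out a library left 1 library in its group, so adjusted p there rest on the spread of the other group and of other genes. Fits ran in limma 3.58.1, DESeq2 1.42.0 and edgeR 4.0.16 under R 4.3.3, and the rest in Python 3.11.15 with scipy 1.17.1.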

Additional observations from a re-analysis of the deposited data

How the results depend on the processing

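Of the 10 cytokine genes, 1 was called higher with all 4 libraries in the main fit. With DESeq2 and with the replicate block 2 were, Penk being the added gene in both. None was called lower under any of the alternatives. All fitted log2 fold changes of the 8 tested members stayed above 0. Over all genes, 92 were called higher and 26 lower; with total count scaling 52 were higher, without a filter on low counts 25 were higher and 8 lower, with a pseudocount of 5 CPM 42 were lower, with DESeq2 185 were higher and 90 lower, and with the replicate block 147 were higher and 78 lower. Leaving out a library gave 19 to 87 higher and 0 to 68 lower. Adam10, not called, had log2 fold changes of -0.25 to 0.039 with a library left out, the sign changing without TLA1 replicate 2. The cause of these shifts was not tested.

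Libraries with the same replicate number did not deviate together (correlation of deviations from the group means -0.011). This cannot show whether such libraries shared a mouse or dish, and the main fit did not pair them. DESeq2 gave no adjusted p for Il13, Il2 and Csf2, whose Th9 levels rest on at most 30 reads a library, and 2 libraries a group limit the precision of every member.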
